A study of Mus musculus with 8 samples.

Results

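The 39 genes described here are those by which T cells and cytotoxic lymphocytes are commonly recognised, from the CD3 chains of the T cell receptor to granzymes and chemokine receptors. They were chosen by name, and each was read at the brightest of its non-control probes on the array, out of 34650 gene names in all. The kidneys came from CD-1 mice, an outbred stock; the labels name no age, sex or genetic change. The 4 control samples (CTL) came from mice given physiological serum and the 4 treated samples (TAC) from mice given tacrolimus at 1 mg/kg per day for 28 days. Total RNA of whole kidney (0.2 ug labelled with Cy3, RNA integrity number 9 for all 8 samples) was hybridised to 1-colour Agilent mouse arrays, 1 array per sample. The labels number the replicates without naming the animals, so that p-values reflect how far these 8 samples vary, which may be technical.

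Tacrolimus binds the immunophilin FKBP12, and the complex inhibits calcineurin, the phosphatase that T cell receptor signalling uses to move NFAT transcription factors into the nucleus. Interleukin-2 is the classic target of that step, which is why the drug is used to prevent rejection of transplanted organs. A healthy kidney holds few T cells, natural killer cells and innate lymphoid cells, scattered among its tubules and vessels, so that transcripts of these cells are a small part of whole-kidney RNA. In whole tissue, fewer cells of a type and less RNA per cell cannot be told apart.

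On each array 64.0% to 69.8% of the gene spots exceeded background clearly, no spot was saturated, and the upper quartile of processed intensity was 674 to 1061 units. The number of arrays limits the precision. A level below is a log2 signal after subtracting the upper quartile (75th percentile) of its array, and a difference is tacrolimus minus control. Control arrays filled row 1 of the slide and tacrolimus arrays row 2, so that row and treatment cannot be told apart; local background averaged 21.8 to 22.1 units in row 1 and 19.3 to 20.5 in row 2. All 10 defining kidney markers were well above background on every array, and their median difference was -0.12. Umod, uromodulin of the thick limb, differed by 0.12, and Slc34a1 and Lrp2 of the proximal tubule by -0.09 and -0.05. Aqp1 of the same segment was lower on every tacrolimus array and differed by -0.23. Slc12a1 and Slc12a3, the salt cotransporters of the thick limb and distal tubule, differed by -0.15 and 0.34, Aqp2 of the collecting duct by -0.40, Nphs1 of podocytes by -0.35, and the tubular cadherin Cdh16 by -0.07. The T cell defining genes Cd3d, Cd3e and Cd3g were also well above background on all 8 arrays.

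The probes carry the measurement, and 4 of the 51 probes of the members have genomic spans longer than their 60 bases. Those of Cd3d, Cd2 and Cd6 are shown as deposited, with no capitals because no base is singled out. That of Cd3d is the brightest probe of its gene, that of Cd2 is a further probe whose difference had the sign of the brightest one, and that of Cd6 a further probe whose difference had the opposite sign.
Cd3d probe, mm9 chr9:44794171-44794402, plus strand: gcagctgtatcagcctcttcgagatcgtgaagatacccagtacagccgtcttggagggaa
Cd2 further probe, mm9 chr3:101083802-101086981, minus strand: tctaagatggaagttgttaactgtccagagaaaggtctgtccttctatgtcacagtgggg
Cd6 further probe, mm9 chr19:10867422-10868678, minus strand: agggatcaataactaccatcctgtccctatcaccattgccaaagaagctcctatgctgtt

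Most T cell transcripts were somewhat higher in the tacrolimus kidneys, and none of them passed the test over all genes. Of the 39 members, 35 passed the filter, being well above background on 4 or more arrays, and were tested, 28 of them on all 8 arrays and 7 on 4 to 7. None of the 35 passed limma at an adjusted p under 0.05, where 0.227% of all 25127 genes and transcripts did. At an unadjusted p under 0.05, 11 members were higher (31.4%), against 7.04% of all genes tested. No member was lower at that threshold, against 8.42% of all genes, while without control replicate 4 or without tacrolimus replicate 1 Gzma was (-0.79 and -0.89), against 10.4% and 7.23% of all genes. The 11 were the surface molecules Cd2, Cd6 and Cd8a, the signalling proteins Lck and Lat, the cytokine receptor chains Il2ra, Il2rb and Il7r, the chemokine receptors Cxcr3 and Cxcr6, and the transcription factor Gata3. The difference was above 0 in 30 of 35 members, against 39.5% of all genes tested, and its median was 0.47, against -0.05 over all genes. The size depended on how background was handled: the median was 0.26 with normexp background correction before the same scaling, 0.23 with normexp and quantile normalization, and 0.29 in the deposited table. Under these 3 settings 16, 19 and 13 of the 35 members had a difference smaller by more than 1.5 times. With the processing used otherwise, 23 of the 28 members well above background on all 8 arrays had a difference above 0, with a median of 0.46.

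The groups overlapped for nearly all members. In 3 of 35, Cd2, Cxcr3 and Gata3, the 4 tacrolimus arrays lay above all 4 control arrays, against 4.35% of all genes tested, and in none did they lie below, against 5.75%. The score, the mean over the 35 tested members of the level relative to the control mean, was 0.44, 0.05, -0.27 and -0.22 on control replicates 1 to 4 and 0.63, 0.70, 0.39 and 0.03 on tacrolimus replicates 1 to 4. The group means differed by 0.44, with SDs of 0.33 and 0.30 (n = 4 per group), and by 0.26, 0.24 and 0.30 under the same 3 settings. Control replicate 1 lay above tacrolimus replicates 3 and 4. It was the highest control in 27 of the 35 members, and control replicate 3 was the lowest in 21. Tacrolimus replicate 2 was the highest treated array in 18 members, and tacrolimus replicate 4 the lowest in 22. The number of the 39 members well above background was 37, 33, 31 and 32 on control replicates 1 to 4 and 37, 37, 36 and 33 on tacrolimus replicates 1 to 4. The share of all gene spots well above background was 69.8%, 65.4%, 64.0% and 65.6% on the controls and 69.3%, 65.9%, 66.8% and 64.6% under tacrolimus. Control replicate 1 thus had the highest share of all 8 arrays. Without control replicate 1, the 3 members without overlap became 11, against 5.76% of all genes, and without tacrolimus replicate 4 or 3 they became 8 and 6, against 6.0% and 6.53%. The 11 members higher at an unadjusted p under 0.05 became 6 when control replicate 3 was left out and 4 when control replicate 4 was, against 5.67% and 7.12% of all genes. Leaving out tacrolimus replicate 1 gave 5 such higher members (14.3%, against 6.89% of all genes). Leaving out tacrolimus replicate 2 gave 3 (8.57%, against 5.76%), a share near that of all genes. Those 3 were Cd2, Cxcr3 and Lck, which stayed under that threshold in each of the fits with 1 array left out.

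**Figure D1:**
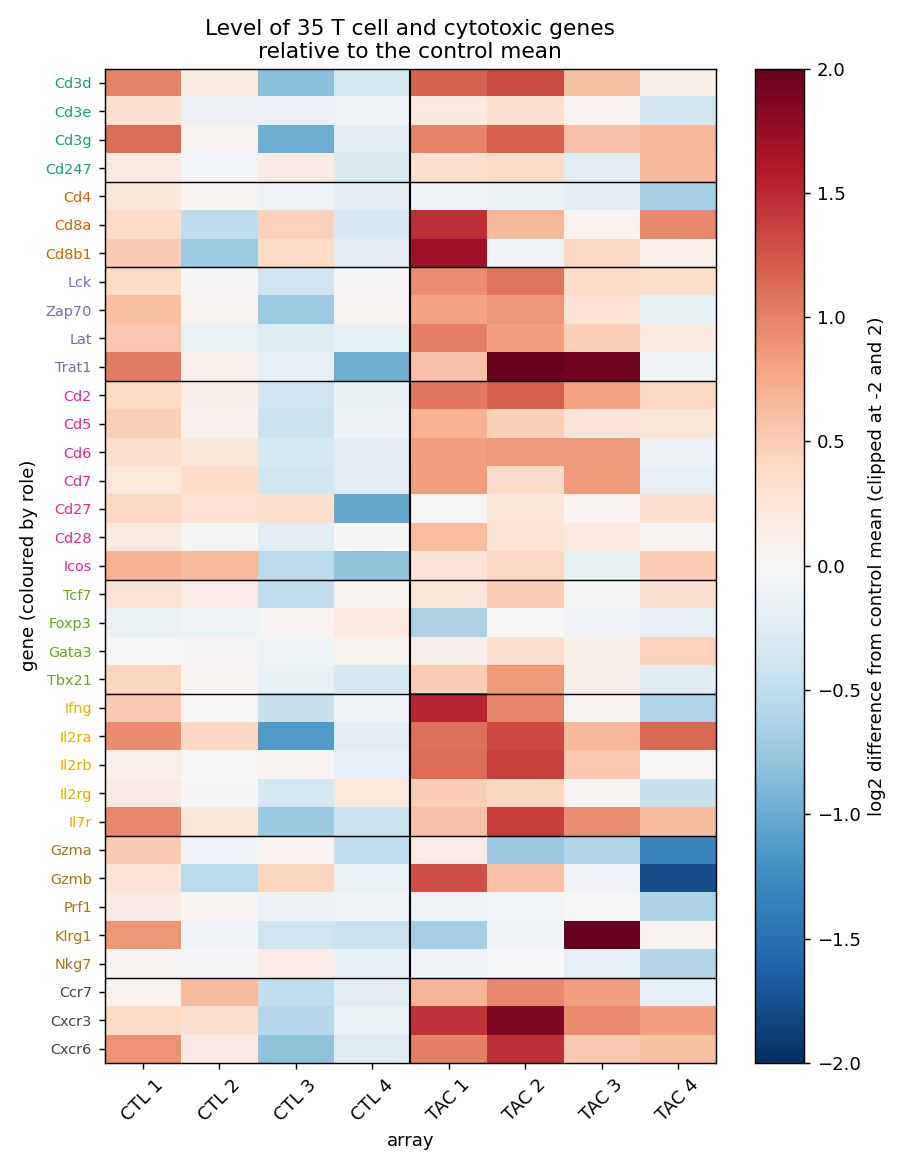
Heat map of the level of each of the 35 tested members (rows, grouped and coloured by role) on the 8 arrays (columns), as the log2 difference from the gene's control mean, clipped at -2 and 2. Control replicate 1 was the highest control in 27 of 35 members, and tacrolimus replicate 4 the lowest treated array in 22.

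The CD3 chains carry the signal of the T cell receptor into the cell. Cd3d and Cd3g, which encode the delta and gamma chains, were higher on average, and Cd3e, which encodes the epsilon chain, was nearly the same. Cd3d read -1.81, -2.62, -3.64 and -3.13 on control replicates 1 to 4 and -1.62, -1.50, -2.20 and -2.69 on tacrolimus replicates 1 to 4. Control replicate 1 lay among the treated arrays, and the groups overlapped. The difference was 0.80 ± 0.41 (SE, n = 4 per group; adjusted p = 0.377, limma). Cd3g read -2.23, -3.27, -4.32 and -3.56 on the controls and -2.36, -2.17, -2.76 and -2.69 under tacrolimus. Here too control replicate 1 stood among the treated arrays, and the other 3 controls lay below all 4. The difference was 0.85 ± 0.39 (adjusted p = 0.336). Cd3e read 0.16, -0.26, -0.27 and -0.22 on the controls and 0.05, 0.18, -0.11 and -0.52 under tacrolimus, a difference of 0.05 ± 0.17. The lowest and the highest of the 8 values were tacrolimus replicate 4 and tacrolimus replicate 2. On the controls the Cd3e probe read -0.15 on average, against -2.80 for Cd3d and -3.35 for Cd3g. Why these levels differ, and whether the chains differ from each other in their differences, was not tested. Cd247, the zeta chain, differed by 0.28 ± 0.19, with the groups overlapping. By the array annotation, on mm9, the Cd3g probe lies at chr9:44777868-44777927 and the Cd3e probe at chr9:44806828-44806887, both on the minus strand.

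The Cd3g and Cd3d genes are neighbours that are transcribed away from each other, and their start regions are shown because both chains had similar differences, beside that of Il2, the classic NFAT target. The sequences hold 250 bases before and 50 after the transcription start (RefSeq, GRCm38.p6, gene strand), and capitals mark a match to a searched motif.
Cd3g, chr9:44980382-44980681, minus strand: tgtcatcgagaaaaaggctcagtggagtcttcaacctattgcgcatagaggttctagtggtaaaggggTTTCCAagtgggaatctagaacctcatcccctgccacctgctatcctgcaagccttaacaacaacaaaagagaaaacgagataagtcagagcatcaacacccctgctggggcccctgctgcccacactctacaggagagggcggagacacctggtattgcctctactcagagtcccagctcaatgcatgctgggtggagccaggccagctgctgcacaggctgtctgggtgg
Cd3d, chr9:44981536-44981835, plus strand: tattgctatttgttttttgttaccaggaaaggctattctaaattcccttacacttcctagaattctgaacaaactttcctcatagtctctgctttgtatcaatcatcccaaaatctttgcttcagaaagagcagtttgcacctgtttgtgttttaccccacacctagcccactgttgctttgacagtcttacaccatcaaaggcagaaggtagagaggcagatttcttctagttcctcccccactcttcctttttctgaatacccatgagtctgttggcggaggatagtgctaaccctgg
Il2, chr3:37125905-37126204, minus strand: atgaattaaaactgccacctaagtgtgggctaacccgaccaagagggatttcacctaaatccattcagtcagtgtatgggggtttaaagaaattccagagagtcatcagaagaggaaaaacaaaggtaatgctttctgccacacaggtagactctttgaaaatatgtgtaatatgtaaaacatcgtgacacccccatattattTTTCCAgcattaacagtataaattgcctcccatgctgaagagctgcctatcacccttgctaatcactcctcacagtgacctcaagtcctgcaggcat

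The motifs searched, on both strands, were TGGAAA, a core bound by NFAT that includes the GGAA shared with ETS factors, TGANTCA, bound by AP-1, and GGTGTGA, a T-box half-site. The promoter table held 33 start regions of 28 of the 39 members. TGGAAA occurred in at least 1 start region of 10 of these 28 members, against 23.9% of all genes in the table. TGANTCA occurred in 1, Gzmb, against 8.97%, and GGTGTGA in 2, Nkg7 and Trat1, against 4.60%. Cd3g, Cd3e and Il2 each held 1 match to TGGAAA on the opposite strand, and Cd3d held none of the 3 motifs.

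The co-receptors bind MHC molecules beside the T cell receptor and bring the kinase Lck to it. The CD8 chains were higher on average and Cd4 was not. Cd8a read -4.89, -5.77, -4.79 and -5.58 on the controls and -3.78, -4.61, -5.19 and -4.29 under tacrolimus, and tacrolimus replicate 3 lay within the controls. The difference was 0.79 ± 0.33 (adjusted p = 0.308, unadjusted p = 0.0426, limma), and it was 0.24 with normexp and quantile normalization. Cd8b1, the beta chain, was well above background on 3 of 4 controls and differed by 0.53 ± 0.42. Its highest array was tacrolimus replicate 1 at -3.78, and the difference was 0.15 without that array. With normexp and quantile normalization it was 0.17. Cd4 read 2.99, 2.82, 2.66 and 2.55 on the controls and 2.65, 2.62, 2.55 and 2.09 under tacrolimus, a difference of -0.28 ± 0.15 (adjusted p = 0.402). The treated arrays were the lower on average and overlapped the controls. A further Cd4 probe differed by -0.16 (unadjusted p = 0.120, limma). It read far lower, -5.02 on average on the controls against 2.76 for the brightest probe, and why the 2 levels differ was not tested.

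Lck phosphorylates the CD3 chains, Zap70 binds them once phosphorylated, and Lat is the membrane adaptor that Zap70 then phosphorylates. All of these were higher on average. Lck read -0.37, -0.80, -1.17 and -0.75 on the controls and 0.16, 0.30, -0.39 and -0.42 under tacrolimus. Control replicate 1 lay just above tacrolimus replicates 3 and 4, so that the groups overlapped by that array alone. The difference was 0.68 ± 0.22 (adjusted p = 0.220, exact two-sided permutation p = 0.0857 for this single gene). Lat read -3.40, -4.06, -4.19 and -4.08 on the controls and -2.92, -3.12, -3.46 and -3.75 under tacrolimus, a difference of 0.62 ± 0.23 (adjusted p = 0.258). Again control replicate 1 stood among the treated arrays and the other 3 controls below them. Zap70 differed by 0.46 ± 0.32 at its brightest probe and by 0.06 ± 0.21 at a further probe. Trat1, an adaptor that associates with the T cell receptor, was well above background on 1 control array and 3 tacrolimus arrays. This gene thus passed the filter mainly through the treated group, where it was higher. It read -5.74, -6.69, -6.95 and -7.76 on the controls and -6.20, -3.48, -4.86 and -6.87 under tacrolimus, and the difference was 1.43 ± 0.73, or 0.33 with normexp and quantile normalization. Tacrolimus replicates 2 and 3 stood above all other arrays.

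Cd2, an adhesion molecule of T and NK cells that binds Cd48 in mice, was one of the members whose groups did not overlap. It read -2.44, -2.70, -3.22 and -2.99 on the controls and -1.79, -1.65, -2.03 and -2.42 under tacrolimus, and the lowest treated array lay just above the highest control. The means were -2.84 ± 0.34 and -1.97 ± 0.34 (SD, n = 4), a difference of 0.87 ± 0.21 (SE), 1.82-fold. The adjusted p was 0.125 (limma, 0.0549 to 0.282 over the settings tried) and the exact two-sided permutation p was 0.0286, the smallest that 4 against 4 arrays can give. The further probe, shown above, differed by 0.75 ± 0.20 (unadjusted p = 0.00475, limma) with overlapping groups. The brightest probe lies on mm9 at chr3:101079831-101079890.

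Other surface molecules of T cell adhesion and co-stimulation differed by less. Cd5 and Cd6, related scavenger receptors that dampen receptor signalling, differed by 0.42 ± 0.19 and 0.60 ± 0.25, and Cd7, of T and NK cells, by 0.47 ± 0.26. Cd28, the co-stimulatory receptor for B7 molecules, differed by 0.28 ± 0.14, and Icos and Cd27, also co-stimulatory receptors, by 0.26 ± 0.36 and 0.16 ± 0.30. The control arrays of Icos spread from -3.73 to -2.23, and all 4 tacrolimus arrays lay within that range. Cd6 read -2.11, -2.20, -2.75 and -2.64 on the controls and -1.61, -1.57, -1.58 and -2.54 under tacrolimus, so that tacrolimus replicate 4 alone kept the groups from separating. Its further probe, shown above, read -4.20, -4.04, -4.35 and -4.27 on the controls and -4.70, -4.96, -4.86 and -5.43 under tacrolimus. That probe was lower on all 4 treated arrays, by 0.77 ± 0.16 as fitted over 36493 probes (unadjusted p = 0.00121, adjusted p = 0.100, limma). The 2 probes of Cd6 therefore gave opposite differences, and the direction for the gene is not settled. Ctla4 and Pdcd1, inhibitory receptors of activated T cells, and Cd69, an early activation marker, were not tested. Ctla4 was well above background on tacrolimus replicate 2 alone, and Pdcd1 and Cd69 each on 1 control and 2 tacrolimus arrays.

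**Figure D2:**
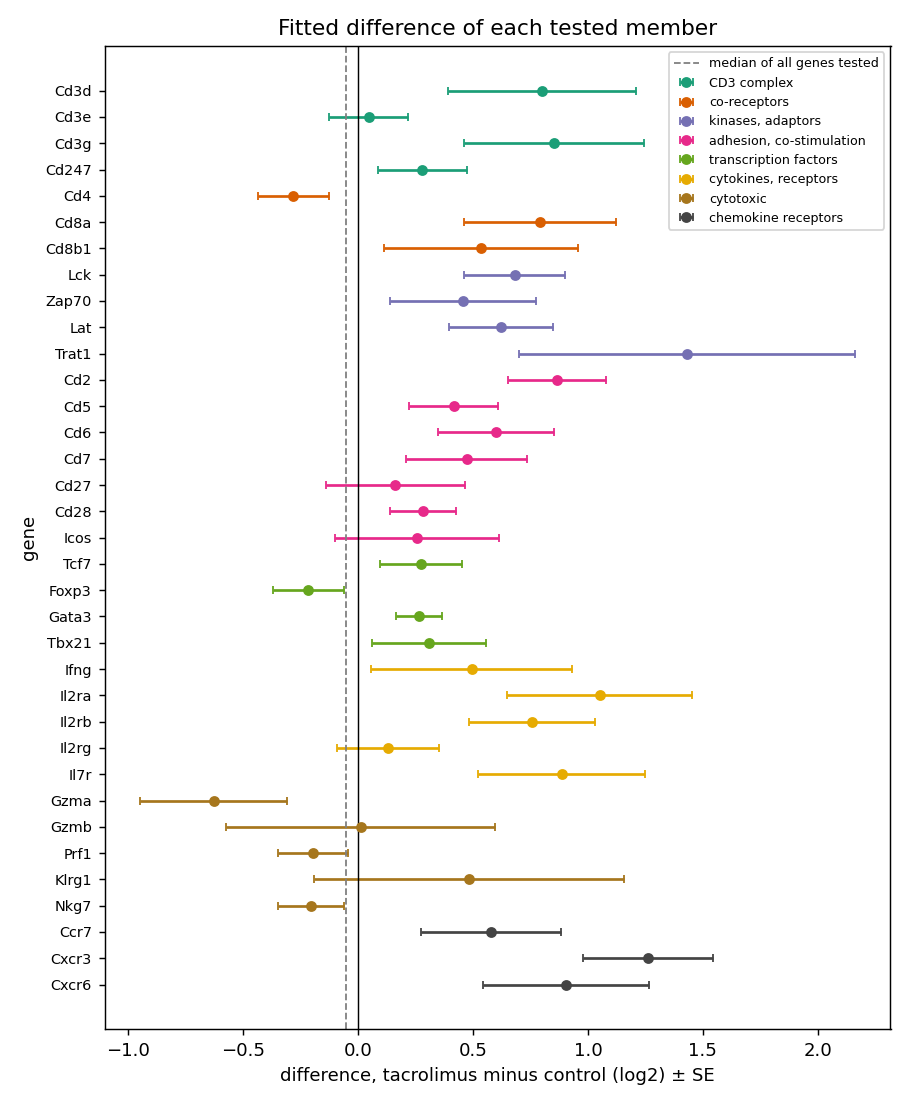
Fitted difference between tacrolimus and control (log2, points) with its SE (bars) for the 35 tested members in order of role, with the median of all genes tested as a dashed line. Cxcr3 differed by 1.26 and Gzma by -0.63, and no member passed at an adjusted p under 0.05.

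Among the transcription factors Gata3 was the one without overlap. It directs T helper type 2 and innate lymphoid cells and is also made by the collecting duct of the kidney. It read 0.65, 0.69, 0.58 and 0.73 on the controls and 0.80, 0.99, 0.80 and 1.12 under tacrolimus, a small difference of 0.26 ± 0.10 (adjusted p = 0.267, exact two-sided permutation p = 0.0286). Its highest array was tacrolimus replicate 4, where most T cell genes were at their lowest in the group. Tcf7, of naive and memory T cells, differed by 0.27 ± 0.18 and Tbx21, the T-bet factor of type 1 responses, by 0.31 ± 0.25. Foxp3, the factor of regulatory T cells, read -5.44, -5.41, -5.25 and -5.10 on the controls and -5.93, -5.29, -5.37 and -5.48 under tacrolimus. Its groups overlapped and its difference was -0.22 ± 0.15 (adjusted p = 0.511).

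Interleukin-2, the growth factor of T cells, was not well above background on any of the 8 arrays. The chains of its receptor were measured. Il2ra, the alpha chain carried by activated and regulatory T cells, read -4.31, -4.83, -6.38 and -5.47 on the controls and -4.15, -3.93, -4.60 and -4.10 under tacrolimus, and was well above background on 3 of 4 controls. The treated arrays lay close together and the controls apart, with the groups overlapping through control replicate 1. The difference was 1.05 ± 0.40 (2.07-fold, adjusted p = 0.276), and 0.35, 0.31 and 0.45 with normexp and the 75th percentile, with normexp and quantile normalization, and in the deposited table. Il2rb, the beta chain shared with interleukin-15, read -2.57, -2.67, -2.63 and -2.84 on the controls and -1.56, -1.31, -2.12 and -2.69 under tacrolimus. The controls were tight, 3 treated arrays lay above them all, and tacrolimus replicate 4 lay among them. The difference was 0.76 ± 0.27 (adjusted p = 0.254), and at a further probe, whose groups did not overlap, it was 0.86 ± 0.23 (unadjusted p = 0.00450, adjusted p = 0.163 over all probes). Il2rg, the common gamma chain, differed by 0.13 ± 0.22. Il7r, the interleukin-7 receptor of naive and memory T cells, differed by 0.89 ± 0.36 (adjusted p = 0.297), or 0.39 with normexp and quantile normalization. Ifng, interferon-gamma of T and NK cells, read -4.31, -4.83, -5.28 and -4.90 on the controls and -3.31, -3.86, -4.76 and -5.43 under tacrolimus. The highest and the lowest of its 8 values were both treated arrays, and its difference was 0.49 ± 0.44 (adjusted p = 0.602).

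At their brightest probes, cytotoxic granule genes were not higher. Gzma, granzyme A, read 1.40, 0.79, 0.93 and 0.38 on the controls and 1.02, 0.13, 0.28 and -0.45 under tacrolimus. The treated arrays were lower on average with overlapping groups, and the difference was -0.63 ± 0.32 (adjusted p = 0.374). Gzmb, granzyme B, read -3.72, -4.51, -3.55 and -4.10 on the controls and -2.69, -3.39, -4.04 and -5.74 under tacrolimus, a difference of 0.01 ± 0.59. Its treated arrays spread over a wider range than its controls, from the highest of the 8 values to the lowest. Prf1, perforin, differed by -0.20 ± 0.15. Nkg7, a granule membrane protein, differed by -0.20 ± 0.14 at its brightest probe and by 0.52 ± 0.35 at a further probe, so that its direction is not settled. These 2 probes read 1.79 and -2.95 on average on the controls, and why their levels differ was not tested. Klrg1, an inhibitory receptor of effector cells, differed by 0.48 ± 0.68 and was well above background on 2 controls. Its tacrolimus replicate 3 at -2.78 stood above the other 7 arrays, which lay between -6.09 and -4.52. The score of the 5 cytotoxic genes was 0.38, -0.14, 0.02 and -0.26 on the controls and 0.12, -0.06, 0.36 and -0.85 under tacrolimus, and their median difference was -0.20. Whether the cytotoxic genes differ from the other members was not tested.

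**Figure D3:**
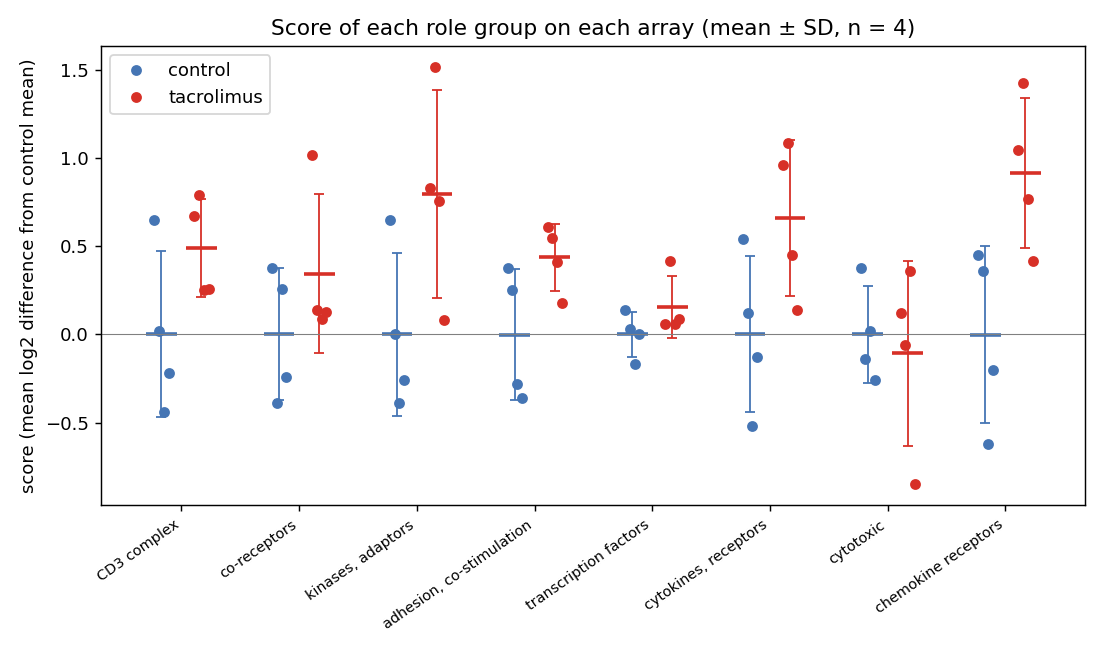
Score of each role group (mean log2 difference of its tested members from their control mean) on each array, in blue for control and red for tacrolimus, with the mean and SD of 4 arrays. The chemokine receptors averaged 0.91 under tacrolimus and the cytotoxic genes -0.11, and the groups overlapped in all 8 role groups shown.

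Chemokine receptors guide lymphocytes into tissue, and Cxcr3 had the lowest p of all 35 members. Cxcr3, the receptor of activated T and NK cells for the interferon-induced chemokines Cxcl9 and Cxcl10, read -2.11, -2.21, -3.08 and -2.65 on the controls and -1.07, -0.66, -1.57 and -1.70 under tacrolimus. Every treated array lay above every control. The means were -2.51 ± 0.44 and -1.25 ± 0.48 (SD, n = 4), a difference of 1.26 ± 0.28 (SE), 2.40-fold. The adjusted p was 0.102 (limma) and the exact two-sided permutation p 0.0286. Over the settings tried the adjusted p ran from 0.0493 to 0.224. The probe lies on mm9 at chrX:98926920-98926979. Cxcr6, the receptor for Cxcl16 on tissue-resident T and NKT cells, read 0.15, -0.59, -1.56 and -1.0 on the controls and 0.26, 0.72, -0.22 and -0.14 under tacrolimus. Control replicate 1 lay among the treated arrays, and the difference was 0.90 ± 0.36 (adjusted p = 0.292), with 0.89 ± 0.38 at a further probe. Ccr7, which guides naive T cells and dendritic cells to lymph nodes, differed by 0.58 ± 0.30 (adjusted p = 0.385).

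Of the 12 members with a second probe, that probe was above background on at least 4 arrays for 8, and in 6 of these its difference had the sign of the brightest probe's. The exceptions were Cd6 and Nkg7.

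**Figure D4:**
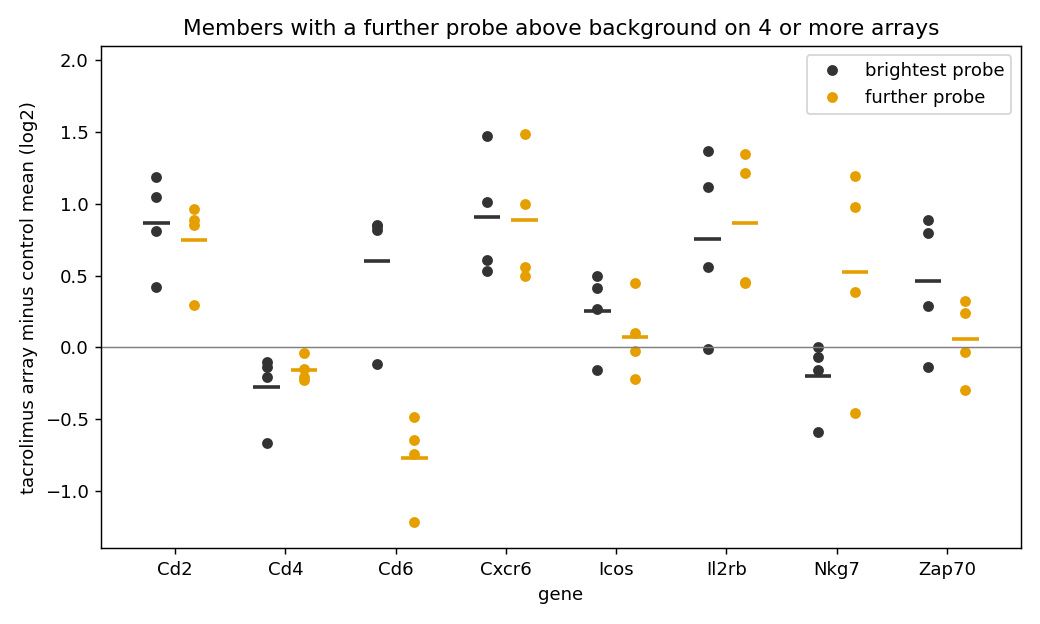
Level on each of the 4 tacrolimus arrays minus the control mean (log2) for the brightest probe (dark) and the further probe (orange) of the 8 members with 2 probes above background on 4 or more arrays; bars are means. The Cd6 probes differed by 0.60 and -0.77 and those of Cd2 by 0.87 and 0.75.

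Of a list of 11 chemokines that attract T cells, some of them ligands of these receptors, 9 were tested and 1 is not among the gene names of the array. At an unadjusted p under 0.05, 4 were higher and none lower, against 7.04% and 8.42% of all genes tested. None passed over all genes, where 0.227% of all genes did. Ccl17, a ligand of Ccr4, lay at -2.98 ± 0.55 (SD) on the controls and -0.74 ± 0.64 under tacrolimus, a difference of 2.25 ± 0.36 (adjusted p = 0.0552). Cxcl9 differed by 2.34 ± 0.62 (adjusted p = 0.148) and Cxcl10 by 1.55 ± 0.48 (adjusted p = 0.204), while Cxcl11, the third ligand of Cxcr3, differed by -0.02 ± 0.12. The Cxcl11 probe read 8.19 on average on the controls, above the kidney marker Umod at 7.76, where Cxcl9 and Cxcl10 read -3.81 and 0.30. Whether that probe measures Cxcl11 was not tested, so its difference may not be that of the gene. Cxcl16, the ligand of Cxcr6, differed by 0.52 ± 0.24 and Ccl19, a ligand of Ccr7, by 0.23 ± 0.15. The groups did not overlap for Ccl17 and Cxcl9, both higher, against 4.35% of all genes tested.

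Other genes of T cell receptor signalling were mostly higher on average. Of 23 listed, 20 were tested, with a median difference of 0.36. At an unadjusted p under 0.05, 9 were higher and none was lower, against 7.04% and 8.42% of all genes tested. None passed over all genes, where 0.227% of all genes did. Vav1, an exchange factor of all blood cells, differed by 0.89 ± 0.18 (adjusted p = 0.0801), the kinase Txk by 0.67 ± 0.18 (adjusted p = 0.142) and the adaptor Fyb by 0.88 ± 0.23 (adjusted p = 0.148). These 3 were among 5 of the 20 that lay entirely above the controls, against 4.35% of all genes tested. Of 12 genes known as targets of calcineurin and NFAT in activated T cells, 5 were tested, and most of the T cell cytokines among them, Il3, Il4, Il5, Il13 and Csf2, were too dim. Of the 5, 2 were higher and 1 was lower before adjustment (p under 0.05), against 7.04% and 8.42% of all genes tested. Egr2 differed by 2.33 ± 0.37 (adjusted p = 0.0552), Tnf by 1.02 ± 0.36 (adjusted p = 0.251) and Nr4a1 by -0.72 ± 0.17 (adjusted p = 0.110). Other kidney cells also make these 3 genes, and their part in the result was not tested.

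Markers of other leukocytes differed to varying extents on the same arrays. Of 12 tested markers of NK and innate lymphoid cells, 2 were higher at an unadjusted p under 0.05 and none lower, with a median difference of 0.33. The counts of higher and lower genes in each list here use that threshold, at which 7.04% of all genes tested were higher and 8.42% lower. Xcl1, a chemokine of NK and CD8 T cells, differed by 1.34 ± 0.27 (adjusted p = 0.0770), with no overlap, Fcer1g, a signalling chain shared with myeloid cells, by 0.75 ± 0.32, and Klrd1, the CD94 chain, by 0.59 ± 0.26. Of 16 tested B and plasma cell markers, 2 were higher and 1 lower, and the median difference was -0.02. The adaptor Blnk differed by 0.68 ± 0.17, the receptor Cd22 by -0.24 ± 0.08 and Cd72 by 0.58 ± 0.25, while the B cell receptor chain Cd79a differed by -0.13. Of 20 tested macrophage and dendritic cell markers, 14 were higher and 2 lower, with a median difference of 1.04. Of these 20, 12 lay entirely above the controls, against 4.35% of all genes tested. Mrc1 and Lyz1 differed by 1.88 ± 0.31 and 1.53 ± 0.26 and Itgam by -0.44 ± 0.08. The Itgam probe read 5.35 on average on the controls, where Mrc1 and Lyz1 read -2.19 and 1.63. Whether that probe measures Itgam was not tested. Of 14 pan-leukocyte genes, 8 were higher and 1 lower, with a median difference of 0.53. Cd53 and Laptm5 differed by 0.88 ± 0.18 and 1.07 ± 0.28, and Itgal, the LFA-1 chain used by T cells for adhesion, by -0.47 ± 0.08. None of the 8 tested neutrophil genes was under an unadjusted p of 0.05 (limma), and Ltf, S100a8 and Elane, the lowest in p, differed by 0.55, -0.58 and -0.39. None of the genes of these 5 lists passed over all genes, where 0.227% of all genes did, and differences between the lists were not tested.

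The arrays that were high or low in T cell genes were so in some of the other lists and not in others. Control replicate 3 had the lowest control scores for T cell genes (-0.27), macrophages (-0.34) and pan-leukocyte genes (-0.31). Tacrolimus replicate 2 had the highest treated scores in the same lists (0.70, 1.21 and 0.85). Control replicate 1, the control with the highest T cell score of 0.44, had a macrophage score of 0.04 and an adipose score of -0.38. Control replicate 2, with a T cell score of 0.05, had the highest control scores for macrophages (0.45) and adipose genes (1.81). Tacrolimus replicate 4, the treated array with the lowest T cell score of 0.03, also had the lowest treated pan-leukocyte score of 0.18. Its macrophage score was 0.72 and its adipose score 5.0. The adipose list was higher on every tacrolimus array (1.96 to 5.0) than on the controls (-0.73 to 1.81). Of the 3 lowest in p, Retn and Cidec differed by 3.11 and 3.42, with 3 and 2 of the 4 controls well above background, and Plin1 was well above background on all 4 tacrolimus arrays and no control, so that it passed the filter through the treated group alone. Among markers of lymph node stroma, Glycam1 and Chst4 were too dim to be tested, Madcam1 and Cxcl13 differed by 0.54 and 1.72, and Clec4g by -0.34. Cxcl13 was well above background on 2 controls and all 4 tacrolimus arrays, and its groups overlapped. The part of these other cells in the T cell differences was not tested. Control replicate 2 and tacrolimus replicate 4 were each the highest of their own group in adipose genes. With both left out, the score difference of the 35 members was 0.59 and 8 lay entirely above the controls, against 7.37% of all genes. Without tacrolimus replicate 4 alone the score difference was 0.58. The adipose scores of the arrays that remained were -0.38, -0.73 and -0.71 on the controls and 2.54, 1.96 and 1.98 under tacrolimus. The groups thus still differed in adipose genes, and this fit cannot separate the 2 differences.

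**Figure D5:**
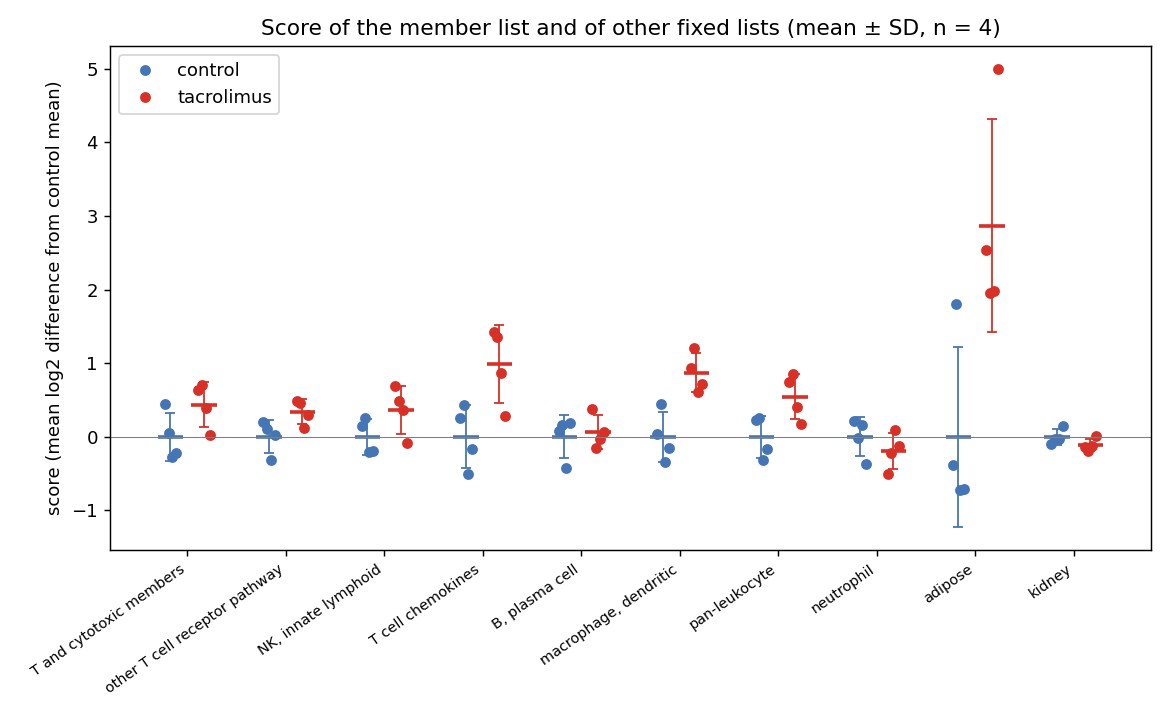
Score of the 35 tested members and of 9 other lists (mean log2 difference from the control mean) on each array, in blue for control and red for tacrolimus, with the mean and SD of 4 arrays. The members averaged 0.44 under tacrolimus, the macrophage and dendritic list 0.87 and the B and plasma cell list 0.06, and the members' groups overlapped.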

How the data were processed

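Kidney RNA of 4 control and 4 tacrolimus samples was measured on 1-colour Agilent arrays, 1 per sample. Per the file headers, Feature Extraction 10.7.3.1 gave, for each spot, raw intensity, local background and a processed intensity with background subtracted and detrended, with no scaling across arrays. The deposited table, used as an alternative, gives log2 intensities; set against the scanner columns, they were quantile-normalized without background subtraction. The submitters' processing notes list limma without settings.

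Values were computed from the scanner files as log2 processed intensity minus the array's 75th percentile over 59305 non-control spots. Spots marked as outliers were left out, the spots of a probe were averaged, and 36493 of 55681 probes, well above background on at least 4 of 8 arrays, were kept. Each gene was represented by its brightest probe (25127 genes and transcripts), with symbols updated through RefSeq accessions (28026 probes matched, 1651 renamed). Groups were compared with limma 3.58.1 (R 4.3.3, two-sided, Benjamini-Hochberg over all genes, threshold 0.05), tested on simulated data. Single genes were also tested by exact permutation over the 70 assignments of the arrays. The members, the lists and the tests were chosen with earlier results of these data known. Named genes are all members, the kidney markers (1 is not reported here), and in each other list the 3 with the lowest p; Cd79a, Cxcl11, Cxcl16 and Ccl19 were named after their values were seen. Alternatives were other normalizations, background correction by normexp with an offset of 50, filters, probe means, variance models, a block for the replicate number, and leaving out arrays.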

Additional observations from a re-analysis of the deposited data

Results flagged for a closer look

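Among the 72 groups of 4 arrays looked at (35 members and their score, in each group), 4 held an array whose gap to the nearest other exceeded Dixon's 95% critical value for 4 samples, where chance gives about 1 in 20. Cd3e on control replicate 1, at 0.16, stood above the other controls, which lay between -0.27 and -0.22. Lat on control replicate 1, at -3.40, stood above the others, between -4.19 and -4.06. Cd6 on tacrolimus replicate 4, at -2.54, stood below the other treated arrays, between -1.61 and -1.57. Cd27 on control replicate 4, at -6.72, stood below the other controls, between -5.42 and -5.29.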

How the results depend on the processing

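No member passed at an adjusted p under 0.05 in any setting, apart from Cxcr3 with the replicate number as a block (limma, adjusted p = 0.0493, range over settings 0.0493 to 0.224). With that replicate block 1 member was called in place of 0 (0.41% of all genes), 17 in place of 11 were higher at an unadjusted p under 0.05 (7.99% of all genes), and 2, Cd4 and Gzma, were lower (9.55% of all genes). With the array median Cd4 was lower (14.1% of all genes). The labels do not say whether the numbers pair the samples. Same-numbered arrays correlated at 0.16, 0.02, 0.14 and 0.06 in their deviations from the group means. Of the 8 arrays, 7 correlated best with their own number, and what same-numbered arrays share was not tested. With normexp and the 75th percentile 5 members did not overlap in place of 3 (4.31% of all genes). With the array median 2 did not, without Gata3 (3.19%), and with the mean of probes 3, Il2rb in place of Cd2 (4.31%). Without control replicate 2 and tacrolimus replicate 4 together 8 did not (7.37%). Leaving out 1 array each moved that number between 3 and 11 (5.03% to 6.53% of all genes). The number higher at an unadjusted p under 0.05 moved between 3 and 14 (5.67% to 7.32%). The median difference moved between 0.33 and 0.66 and the score difference between 0.35 and 0.59. The number called stayed at 0 (0.0279% to 0.223% of all genes). The median and score differences stayed above 0 in every setting, as low as 0.23 and 0.24 with normexp and quantile normalization.

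Of 35 members, 28 kept the sign of their difference in every setting tried. Gzmb was at -0.017 with quantile normalization and -0.041 with the array median, and Cd3e at -0.0058 with the array median. With the mean of a gene's probes Cd6 was at -0.086 and Nkg7 at 0.16. Leaving out 1 array each moved Cd3e between -0.047 and 0.19, Cd27 between -0.18 and 0.30, Icos between -0.013 and 0.49, Gzmb between -0.42 and 0.60, and Klrg1 between -0.23 and 0.87. The cause of these changes was not tested. Over all genes 57 were called, 82.5% of them higher, and 7 (without control replicate 2) to 309 (array weights) in other settings; with normexp and quantile normalization 132 were called, 68.9% of them higher. Signal over background limits Il2, Ctla4, Pdcd1 and Cd69, which were not tested.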
